A study of Homo sapiens with 11 samples.

Results

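The transcripts described here are those of 10 dual-specificity phosphatases that act on MAP kinases: DUSP1, DUSP2, DUSP4, DUSP5, DUSP6, DUSP7, DUSP8, DUSP10, DUSP14 and DUSP16. They were chosen by name, as the count rows of these symbols, and are 10 of the 60676 genes counted. All 10 passed the filter on low counts. MAP kinases (ERK, JNK and p38) are switched on when a threonine and a tyrosine in their activation loop are phosphorylated, and these phosphatases remove both phosphates. Many of their genes are themselves switched on by growth factor or stress signals, so that they act as feedback brakes, and they differ in where they sit in the cell and in which MAP kinase they prefer. DUSP1, DUSP2, DUSP4 and DUSP5 are nuclear and inducible, DUSP6 and DUSP7 are cytoplasmic and prefer ERK, DUSP8, DUSP10 and DUSP16 prefer JNK and p38, and DUSP14 is a small atypical member without the MAP kinase binding domain of the others.

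RNA was sequenced from RWPE1 cells, a line of human prostate epithelial cells immortalized with a papillomavirus, grown in keratinocyte serum-free medium that contains EGF and bovine pituitary extract. The groups were normoxia (0 h, 3 libraries) and 1% oxygen for 6 h (3 libraries), 12 h (3 libraries) and 24 h (2 libraries). A further 24 h library of the study is not analysed here. The medium of the hypoxic cells also held HEPES buffer, so oxygen and buffer cannot be told apart. Nothing in the labels ties the replicates to separate cultures, so the p-values measure the spread between these samples, which may be technical, and in RNA from bulk cells, fewer cells with a transcript and less of it per cell cannot be told apart.

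Each library held 27496009 to 49488345 counts over all genes, and the TMM factors that scale counts to CPM, counts scaled to a common library size, ran from 0.539 to 1.32. The lowest factor belonged to 24 h replicate 2, which stands apart: mitochondrially encoded genes took 0.369% of its counts, against 1.74% in 24 h replicate 1, 4.3% to 6.78% at 6 and 12 h and 10.2% to 10.3% at 0 h. The 8 hypoxia genes used as a check of the labels, among them EGLN3 (mean 2.56 CPM at 0 h and 191 CPM at 6 h), were all higher at each time. The basal epithelial markers fitted the labelled cell type, with summed levels between 8390 and 11200 CPM in normoxia and between 17200 and 22000 CPM after 24 h. Most of these sums was KRT5, with means of 7280 CPM at 0 h and 12100 CPM at 24 h. TP63 among these markers was called lower at each time, and ITGB4, not called, lay below its normoxic range at 12 and 24 h. The luminal markers KRT8 and KRT18 were called higher at each time, the luminal list summed to 228 to 259 CPM in normoxia and 1070 to 1800 CPM after 24 h, and KLK3 had no counts. Endothelial markers summed to at most 0.513 CPM and leukocyte markers to at most 3.38 CPM in any library. The fibroblast list, nearly all of it COL1A1, lay between 47.2 and 60.6 CPM in normoxia and between 28 and 30.5 CPM after 24 h. The part of other cell types or of mitochondrial RNA in the results was not tested.

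Most of these transcripts rose in hypoxia. The summed level of all 10 lay between 229 and 249 CPM in normoxia and between 767 and 1020 CPM at 6 h. It lay between 731 and 772 CPM at 12 h and between 922 and 1140 CPM at 24 h, without overlap between normoxic and hypoxic libraries. Much of the hypoxic sums was DUSP1, which alone held 319 to 526 CPM at 6 h, 343 to 377 CPM at 12 h and 475 and 769 CPM at 24 h. In normoxia it held 15.2 to 16.7 CPM. Calls rest on an adjusted p under 0.05 in edgeR's quasi-likelihood test, where p-values of the 19981 genes tested were adjusted by Benjamini-Hochberg. At 6 h 9 of 10 members were called (7 higher and 2 lower), where 52.8% of all tested genes were called, 25.1% higher and 27.7% lower. At 12 h 9 of 10 were called (8 higher and 1 lower, beside 51.2% of tested genes, 24.2% higher and 27.1% lower), and at 24 h 8 of 10 (6 higher and 2 lower, beside 61.2% of tested genes, 29.9% higher and 31.3% lower). Without 24 h replicate 2, which leaves a single library at 24 h, more members but fewer of all tested genes were called. The libraries of 9 of 10 members did not overlap those of 0 h at each of the 3 times, as for 69.6%, 72.3% and 73.0% of tested genes. The median log2 fold change of the members against 0 h was 1.52, 1.08 and 1.08 at 6, 12 and 24 h, beside -0.002, -0.033 and -0.065 over all tested genes.

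DUSP1, DUSP2, DUSP5, DUSP6 and DUSP14 were called higher at all 3 times, and DUSP8 was called lower at all 3. Among all tested genes, 2961 had 3 such calls upward and 3582 had 3 downward. Since 1 set of 0 h libraries serves every time, these calls are not independent of one another. The remaining DUSP4, DUSP7, DUSP10 and DUSP16 changed their call between times and are described below with the members of their class. When libraries were scaled by library size alone, the median of all genes moved to -0.32, -0.499 and -0.971, and the members called at 12 and 24 h fell to 5 of 10 each. That scaling called 10560 of the 19981 tested genes at 12 h and 13527 at 24 h. DUSP10 at 6 h, DUSP7 at 12 h and DUSP4 at 24 h then had a negative log2 fold change.

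**Figure D1:**
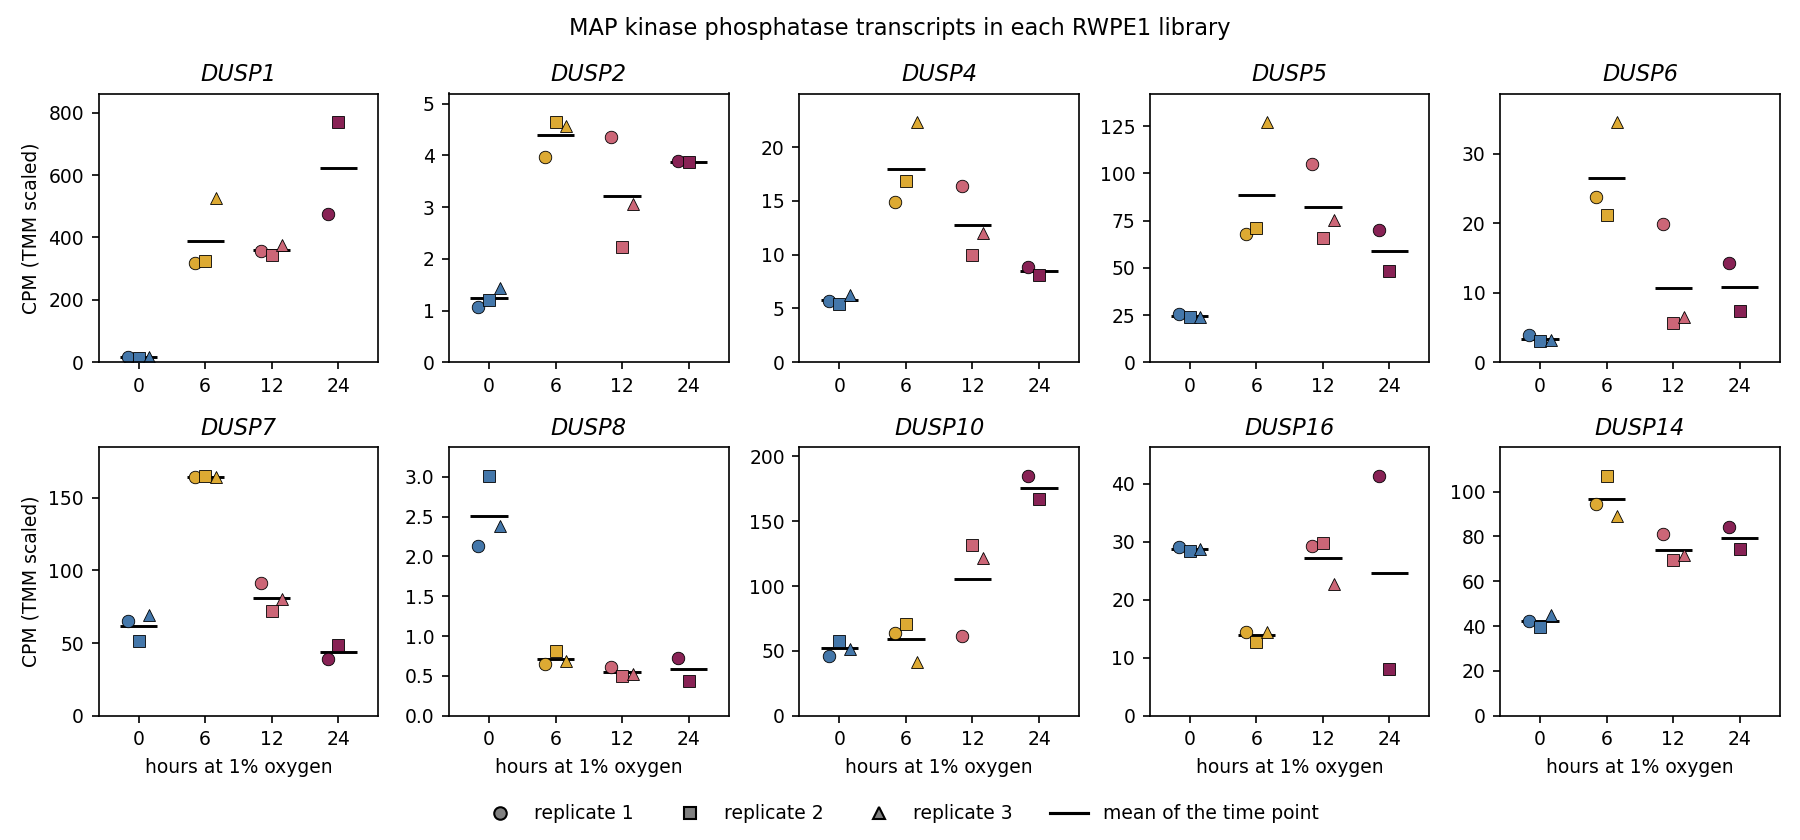
Level of each of the 10 transcripts in every library, as CPM scaled by TMM (vertical axes start at 0 and differ between panels), against hours at 1% oxygen. Symbols mark replicate numbers and bars the mean of a time point. DUSP1 lay between 15.2 and 16.7 CPM at 0 h and between 319 and 769 CPM in hypoxia, DUSP8 was below its normoxic range in all 8 hypoxic libraries, and the 2 libraries at 24 h lay far apart for DUSP16 (41.4 and 8.01 CPM).

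Upstream of the start sites of the members, short DNA words known from stress and signal responses were counted in the 250 bases before each RefSeq start (RefSeq windows on GRCh38.p14). The words were ACGTG (the core bound by hypoxia-inducible factors), CACGTG (an E-box, which contains ACGTG on both strands), TGACGT (a CRE/ATF word), TGANTCA (bound by AP-1) and the CArG box (bound by SRF). Both strands were read, so that the palindrome of the CRE counts as a pair of overlapping TGACGT matches. Windows were at hand for 8 members (DUSP10 has 2 windows), and DUSP4 and DUSP5 are named only. Among all 35116 windows, 18.5% held ACGTG, 6.34% CACGTG, 7.1% TGACGT, 6.57% TGANTCA and 1.16% a CArG box.

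Of the 8 members with windows, DUSP1, DUSP2 and DUSP8 held any of these words. Among all 27305 genes with windows, 21.7% held ACGTG, 7.73% CACGTG and 8.62% TGACGT. The share of genes holding any of the 5 words was not counted. The stretches of DUSP1 and DUSP8 are shown because these moved furthest up and down in hypoxia. That of DUSP2 is shown as the only other of the 8 with an E-box. In DUSP1 the CACGTG starts 108 bases before the start site and the TGACGT words 172, 125 and 123 bases before it. In DUSP2 the CACGTG starts 113 bases before it, and in DUSP8 the TGACGT words start 118, 116, 74 and 72 bases before it. Capitals mark the words, and all 3 stretches are on the minus strand, written 5′ to 3′, from chr5:172771288-172771377 (DUSP1), chr2:96145538-96145563 (DUSP2) and chr11:1572328-1572399 (DUSP8).
DUSP1: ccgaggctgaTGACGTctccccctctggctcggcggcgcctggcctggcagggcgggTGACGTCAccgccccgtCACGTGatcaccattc
DUSP2: gactgcgcccCACGTGaggggcgggg
DUSP8: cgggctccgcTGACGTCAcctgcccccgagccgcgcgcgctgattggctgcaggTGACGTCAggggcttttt
The windows of DUSP6, DUSP7, DUSP10, DUSP14 and DUSP16 held none of the 5 words. These matches describe the letters only, and any bearing of the words on the changes was not tested.

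DUSP1 (ENSG00000120129, GRCh38 chromosome 5, 172768096 to 172771195, minus strand), the founding MAP kinase phosphatase, which acts on p38 and JNK and also on ERK, changed most. Its level was 15.9, 15.2 and 16.7 CPM in the 3 normoxic libraries, 319, 325 and 526 CPM at 6 h, 355, 343 and 377 CPM at 12 h, and 475 and 769 CPM at 24 h. Every hypoxic library lay far above every normoxic one, and replicate 3 at 6 h and replicate 2 at 24 h were the highest of their times. The rise was 24.4-fold at 6 h (log2 fold change 4.61, standard error 0.25, adjusted p = 2.76e-07), 22.5-fold at 12 h (4.49, standard error 0.25, adjusted p = 5.1e-07) and 39-fold at 24 h (5.28, standard error 0.27, adjusted p = 1.78e-07). These log2 fold changes stood at the 99.7, 99.7 and 99.8 percentile of all tested genes. The 3 calls held under every alternative tried, with log2 fold changes of 4.02 to 5.54.

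DUSP2 (ENSG00000158050, chromosome 2, 96143169 to 96145440, minus strand), a phosphatase best known from lymphocytes, was low. Its level was 1.06, 1.2 and 1.44 CPM at 0 h, 3.96, 4.64 and 4.57 CPM at 6 h, 4.36, 2.22 and 3.06 CPM at 12 h, and 3.89 and 3.87 CPM at 24 h. All hypoxic libraries were above all normoxic ones, with counts of 45 to 60 at 0 h and 71 to 241 in hypoxia. It was 3.55-fold higher at 6 h (log2 fold change 1.83, standard error 0.25, adjusted p = 8.04e-05), 2.59-fold at 12 h (1.37, 0.25, adjusted p = 0.000775) and 3.14-fold at 24 h (1.65, 0.28, adjusted p = 0.000278).

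DUSP4 (ENSG00000120875, chromosome 8, 29333064 to 29350684, minus strand), which acts on ERK, JNK and p38, rose at 6 and 12 h and was lower again at 24 h. Its level was 5.73, 5.44 and 6.25 CPM at 0 h, 14.9, 16.8 and 22.3 CPM at 6 h, 16.4, 9.96 and 12 CPM at 12 h, and 8.81 and 8.07 CPM at 24 h. The 24 h libraries lay above those of 0 h and below all those at 6 and 12 h. The gene was 3.1-fold higher at 6 h (log2 fold change 1.63, standard error 0.21, adjusted p = 4.56e-05) and 2.2-fold at 12 h (1.14, 0.21, adjusted p = 0.000708). At 24 h the log2 fold change of 0.54 did not pass the test (standard error 0.23, adjusted p = 0.0595), although it did with DESeq2 (adjusted p = 0.0471), without 12 h replicate 1 (0.0365) or without 6 h replicate 3 (0.0442), and it was -0.364 with library size alone (adjusted p = 0.257).

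DUSP5 (ENSG00000138166, chromosome 10, 110497907 to 110511533, plus strand), a nuclear phosphatase selective for ERK, was at 25.8, 23.9 and 24.2 CPM at 0 h, 67.9, 70.9 and 127 CPM at 6 h, 105, 66 and 75.2 CPM at 12 h, and 70 and 48.2 CPM at 24 h. Normoxic and hypoxic libraries did not overlap, while the 3 hypoxic times overlapped one another. The rise was 3.6-fold at 6 h (log2 fold change 1.85, standard error 0.25, adjusted p = 8.01e-05), 3.33-fold at 12 h (1.74, 0.25, adjusted p = 0.000161) and 2.4-fold at 24 h (1.26, 0.27, adjusted p = 0.00158). With library size alone the 24 h call was lost (log2 fold change 0.407, adjusted p = 0.307).

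Together the 4 nuclear inducible members summed to 45.7 to 48.6 CPM at 0 h, 406 to 679 CPM at 6 h, 421 to 481 CPM at 12 h and 557 to 829 CPM at 24 h. All 4 were called higher at 6 and 12 h and 3 of 4 at 24 h. In hypoxia most of that sum was DUSP1, which alone accounted for 475 and 769 CPM of the 557 and 829 CPM at 24 h, whereas in every normoxic library DUSP5 stood above DUSP1.

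DUSP6 (ENSG00000139318, chromosome 12, 89347235 to 89352501, minus strand) is the cytoplasmic ERK phosphatase that is often read as a marker of ERK output. Its level was 3.95, 2.99 and 3.27 CPM at 0 h, 23.8, 21.1 and 34.5 CPM at 6 h, 19.9, 5.6 and 6.46 CPM at 12 h, and 14.2 and 7.41 CPM at 24 h. All hypoxic libraries exceeded the normoxic ones and the 12 and 24 h libraries were all below those at 6 h. Replicate 1 at 12 h, however, stood 3.3-fold above the mean of the other 12 h libraries. In that replicate 0.415% of tested genes lay at least as far above or below the other 12 h libraries. The log2 fold change was 2.96 at 6 h (7.78-fold, standard error 0.44, adjusted p = 0.000149), 1.64 at 12 h (3.11-fold, 0.43, adjusted p = 0.00722) and 1.67 at 24 h (3.18-fold, 0.47, adjusted p = 0.00827). Without 12 h replicate 1 the 12 h value was 0.826 and still called (adjusted p = 0.0377), and without 24 h replicate 1 the 24 h value was 1.07 and not called (adjusted p = 0.124). The 24 h call was also lost with sample quality weights (0.0853) and, as at 12 h (0.058), with library size alone (0.167). Of the exonic bases of DUSP6, 28.6% overlap the non-coding gene ENSG00000274021 on the other strand, which had 0 to 4 counts in every library. The strand setting of the counting is not given in the sources used here.

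DUSP7 (ENSG00000164086, chromosome 3, 52048919 to 52056571, minus strand), the close relative of DUSP6 with the same preference for ERK, rose and then fell below its normoxic level. It was at 65.4, 51.4 and 69.3 CPM at 0 h, 164, 165 and 164 CPM at 6 h, 91.2, 72.2 and 80.4 CPM at 12 h, and 39.1 and 48.7 CPM at 24 h. No time point overlapped another, and the 3 libraries at 6 h were nearly equal. The rise at 6 h was 2.65-fold (log2 fold change 1.41, standard error 0.15, adjusted p = 1.42e-05) and held under every alternative. At 12 h the log2 fold change was 0.39 (standard error 0.15, adjusted p = 0.0454), and this call was lost under 13 of 20 alternatives. Among these were leaving out any of 0 h replicates 1 and 2 and of the 6 and 12 h libraries (adjusted p 0.0535 to 0.194) and library size alone (log2 fold change -0.082). At 24 h it was -0.50 (1.41-fold lower, standard error 0.17, adjusted p = 0.0229), and this call depended on 0 h replicate 1 (adjusted p = 0.07 without it), 0 h replicate 3 (0.0894) and 24 h replicate 1 (0.0624). It was also lost with sample quality weights (0.187) and with only the compared time points (0.0645).

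**Figure D2:**
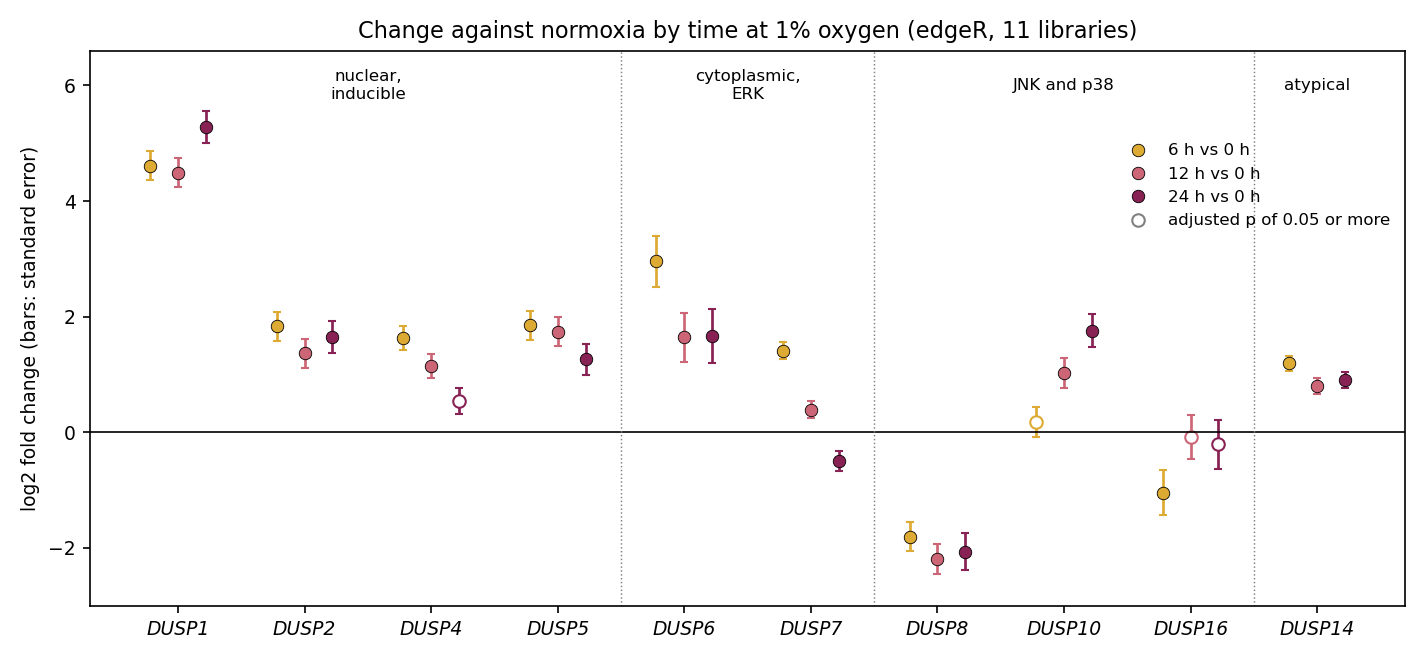
log2 fold change against 0 h of the 10 members at 6, 12 and 24 h, with standard errors from edgeR's fit of all 11 libraries. Filled points have an adjusted p under 0.05 and open points do not. The 4 nuclear members and DUSP14 lie above 0 at each time, DUSP7 goes from 1.41 at 6 h to -0.50 at 24 h, DUSP10 goes from 0.18 to 1.76, and DUSP8 stays near -2.

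DUSP8 (ENSG00000184545, chromosome 11, 1554051 to 1572271, minus strand), a phosphatase of JNK and p38 known mainly from brain and heart, went the other way. Its level was 2.13, 3.01 and 2.38 CPM at 0 h, 0.649, 0.811 and 0.682 CPM at 6 h, 0.609, 0.504 and 0.525 CPM at 12 h, and 0.727 and 0.436 CPM at 24 h. Every hypoxic library was below every normoxic one, with 92 to 113 counts at 0 h and 8 to 36 in hypoxia. It was 3.5-fold lower at 6 h (log2 fold change -1.81, standard error 0.25, adjusted p = 8.76e-05), 4.58-fold lower at 12 h (-2.19, 0.26, adjusted p = 3.72e-05) and 4.21-fold lower at 24 h (-2.07, 0.32, adjusted p = 0.000136). The 24 h call was lost with sample quality weights (adjusted p = 0.0762), and the gene was removed when each library had to hold 10 counts or more. The processed pseudogene DUSP8P5 on chromosome 10 had 65 counts in each normoxic library, between 63 and 83 at 6 h, between 24 and 56 at 12 h and only 5 and 8 at 24 h. How reads that match both were counted is not given in the sources used here, so the level of DUSP8 is uncertain to that extent.

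DUSP10 (ENSG00000143507, chromosome 1, 221701424 to 221742089, minus strand), which acts on p38 and JNK, rose late. Its level was 46.5, 57.5 and 51.8 CPM at 0 h, 64, 71 and 41.8 CPM at 6 h, 61.4, 132 and 122 CPM at 12 h, and 185 and 167 CPM at 24 h. The 6 h libraries overlapped those of 0 h, replicate 1 at 12 h lay near the 6 h level, and both 24 h libraries were the highest of the series. The log2 fold change was 0.18 at 6 h (standard error 0.26, adjusted p = 0.573, and -0.142 with library size alone), 1.02 at 12 h (2.03-fold, 0.26, adjusted p = 0.00607) and 1.76 at 24 h (3.4-fold, 0.29, adjusted p = 0.000196). Library size alone ended the 12 h call (0.564, adjusted p = 0.142), and the 24 h call held under every alternative.

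DUSP16 (ENSG00000111266, chromosome 12, 12473282 to 12562863, minus strand), a phosphatase of JNK that moves between cytoplasm and nucleus, was lower at 6 h. It was at 29.1, 28.5 and 28.7 CPM at 0 h, 14.4, 12.8 and 14.5 CPM at 6 h, 29.3, 29.9 and 22.7 CPM at 12 h, and 41.4 and 8.01 CPM at 24 h. The 6 h libraries lay in a narrow range below those of 0 and 12 h, while the pair at 24 h lay 5.16-fold apart, on either side of all others. Between those libraries 1.38% of tested genes differed as much. At 6 h the log2 fold change was -1.05 (2.07-fold lower, standard error 0.39, adjusted p = 0.0365). The call was lost whichever of the 0 h and 6 h libraries was left out (adjusted p 0.0734 to 0.104). The log2 fold change stayed between -1.09 and -0.994 when any single library was left out, and 14 of 20 alternatives kept the call. The standard error comes from the fit of all 11 libraries, the pair at 24 h included. At 12 h it was -0.08 (adjusted p = 0.882). At 24 h it was -0.21 (adjusted p = 0.681), -1.9 without 24 h replicate 1 (adjusted p = 4.18e-06) and 0.508 without 24 h replicate 2 (adjusted p = 0.0167), so the 24 h value rests on which library is kept.

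The 3 members that prefer JNK and p38 summed to 77.8 to 88.9 CPM at 0 h, 57 to 84.6 CPM at 6 h, 91.3 to 162 CPM at 12 h and 176 to 227 CPM at 24 h. At 6 h DUSP8 and DUSP16 were called lower and DUSP10 was not called, and at 24 h DUSP10 was called higher and DUSP8 lower.

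DUSP14 (ENSG00000276023, chromosome 17, 37489891 to 37513501, plus strand), the atypical member, was at 42.5, 39.8 and 45.1 CPM at 0 h, 94.5, 107 and 89.2 CPM at 6 h, 80.9, 69.7 and 71.9 CPM at 12 h, and 84 and 74.6 CPM at 24 h. The hypoxic libraries were all above the normoxic ones and the 12 and 24 h libraries all below those at 6 h. It was 2.28-fold higher at 6 h (log2 fold change 1.19, standard error 0.13, adjusted p = 1.46e-05), 1.75-fold at 12 h (0.80, 0.13, adjusted p = 0.000309) and 1.87-fold at 24 h (0.90, 0.14, adjusted p = 0.000159). With library size alone the later calls were lost (log2 fold changes 0.334 and 0.00608, adjusted p = 0.163 and 0.981).

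Comparing the times of hypoxia with one another showed which members kept moving. At 12 h against 6 h 1 of 10 members was called, with 4.95% of tested genes called (1.88% higher and 3.07% lower), and 5 of 10 had libraries that did not overlap (31.6% of tested genes). DUSP7 was lower (log2 fold change -1.02, standard error 0.15, adjusted p = 0.00562). DUSP6 had a log2 fold change of -1.32 (standard error 0.41, adjusted p = 0.0891) and DUSP10 of 0.84 (0.26, adjusted p = 0.0857). DUSP16 was at 0.974 (adjusted p = 0.171) and DUSP14 at -0.387 (adjusted p = 0.106), neither called and neither overlapping between these times. With only the compared time points DUSP16 was called (adjusted p = 0.00645), and with DESeq2 DUSP14 was (adjusted p = 0.0147). Without 12 h replicate 1, whose values for 6 of 10 members were nearer to the 6 h mean than to the other 12 h libraries (39.7% of tested genes), 3 members were called, with DUSP6 at -2.13 (adjusted p = 0.00649) and DUSP10 at 1.11 (adjusted p = 0.0172). That fit called 625 of the 19981 tested genes. Both genes lay far from the other 12 h libraries in 12 h replicate 1, so leaving it out was bound to move them. Without 24 h replicate 1 or 2, neither of which is in this comparison, more members were called, as were more of all tested genes. The log2 fold changes hardly moved (DUSP6 -1.34 and -1.32, DUSP10 0.837 and 0.855). Without 12 h replicate 3 the call of DUSP7 was lost (adjusted p = 0.0507), which left 0 members called by edgeR, with 5 at an unadjusted p under 0.05. Of the 19981 tested genes, 61 were called in that fit and 2948 had an unadjusted p under 0.05.

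At 24 h against 12 h 2 of 10 members were called, where 28.4% of tested genes were (15.1% higher and 13.3% lower), and 4 of 10 did not overlap (49.1% of tested genes). DUSP1 was 1.74-fold higher (log2 fold change 0.80, standard error 0.24, adjusted p = 0.0255) and DUSP7 1.85-fold lower (-0.89, 0.17, adjusted p = 0.00424). The call of DUSP1 was lost without 24 h replicate 2 (0.404, adjusted p = 0.244) and with library size alone (0.272, adjusted p = 0.358). It was also lost without any 1 of the 12 h libraries (adjusted p 0.0565 to 0.0846), each of which left 1 member called. Those fits called 3051 to 5214 of the 19981 tested genes. Both calls were lost with sample quality weights (0.175 and 0.133) and with only the compared time points (0.107 and 0.0671). DUSP10 was at 0.74 (standard error 0.28, adjusted p = 0.0666), higher in both 24 h libraries than in any at 12 h.

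A comparison of 24 h with 6 h was added after the values were seen. In it 5 of 10 members were called, with 42.4% of tested genes called (22.1% higher and 20.3% lower), and 6 of 10 did not overlap (53.3% of tested genes). DUSP10 was 2.99-fold higher (log2 fold change 1.58, standard error 0.28, adjusted p = 0.00104) and DUSP7 3.75-fold lower (-1.91, 0.18, adjusted p = 4.51e-05), both under every alternative. DUSP4 was 2.13-fold lower (-1.09, 0.24, adjusted p = 0.00316, or 0.155 with sample quality weights). DUSP1 was 1.59-fold higher (0.67, 0.24, adjusted p = 0.0369) with overlapping libraries, and DUSP6 2.44-fold lower (-1.29, 0.48, adjusted p = 0.046). The calls of DUSP1 and DUSP6 were both lost without 24 h replicate 2 (0.289, adjusted p = 0.361, and -0.895, adjusted p = 0.237) and without any single 0 h library or 6 h replicate 1 or 2, that of DUSP1 also without 12 h replicate 2 or 3, and that of DUSP6 also without 6 h replicate 3. Of 10 members, 3 were called without any single 0 h library or 6 h replicate 1 or 2, where 7026 to 7765 of the 19981 tested genes were. More members and more of all tested genes were called without 24 h replicate 1, which leaves a single library at 24 h.

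Set against one another per kilobase of exon, the members changed order. In normoxia DUSP10 (18.4 CPM per kilobase) and DUSP14 (17.4) were the highest and overlapped, followed by DUSP7 (10.9) and DUSP5 (9.7), which also overlapped, then DUSP1 (7.92) and DUSP16 (4.04). DUSP6 (0.882), DUSP4 (0.798), DUSP2 (0.64) and DUSP8 (0.505) were the lowest, and each overlapped its neighbour in this order. In hypoxia DUSP1 was first, at 194, 178 and 309 CPM per kilobase at 6, 12 and 24 h, and its libraries overlapped those of no other member. Its share of the summed level per kilobase of all 10 was 11.1% ± 0.188 in normoxia (SD, n = 3). It was 57.6% ± 5.55 after 6 h (n = 3), 58.8% ± 1.02 after 12 h (n = 3) and 68.5% ± 9.91 after 24 h (n = 2). DUSP14 was second at 6 h (39.8), overlapping DUSP5 (34.9). By its mean DUSP10 was second at 12 h (37.2), but its libraries overlapped those of DUSP5 (32.4) and DUSP14 (30.4). At 24 h DUSP10 was second (62.4, above DUSP14 at 32.5 without overlap). DUSP8 was last at every time.

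**Figure D3:**
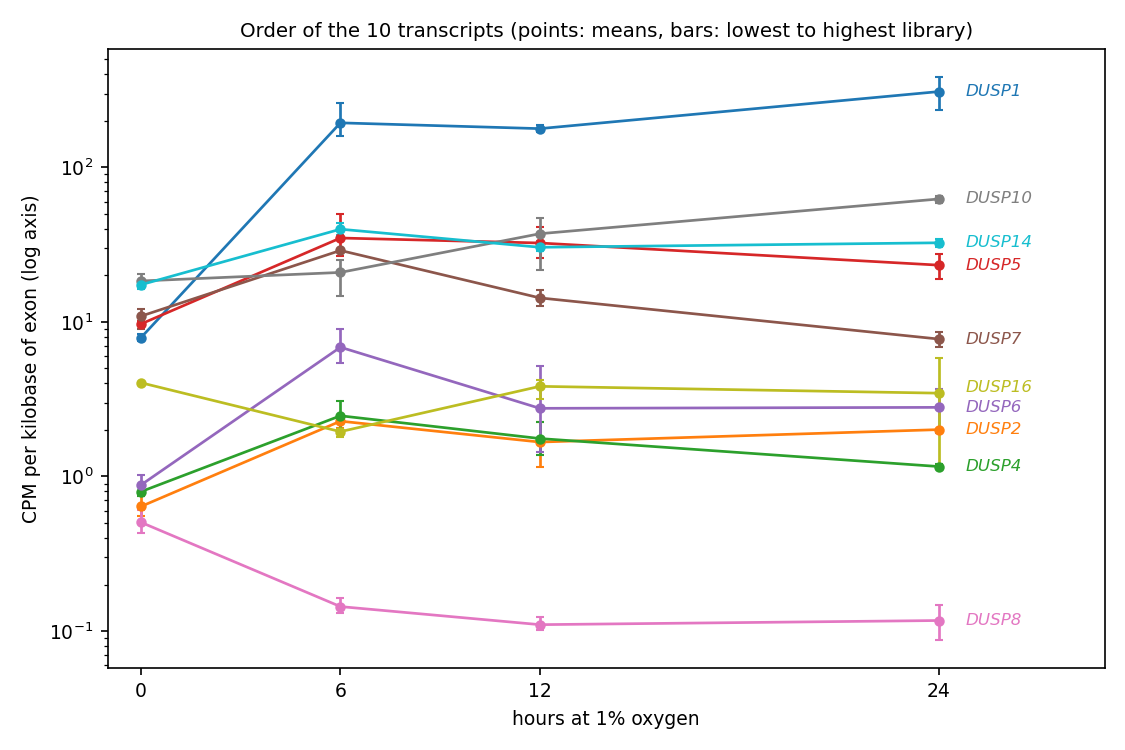
Mean level of each member per kilobase of exon (CPM per kilobase, log axis) against hours at 1% oxygen, with bars from the lowest to the highest library. DUSP1 goes from the middle of the order at 0 h (7.92) to first from 6 h on (194, 178 and 309), and DUSP8 is last throughout. DUSP10 reaches second place at 12 h by its mean, where its libraries overlap those of DUSP5 and DUSP14.

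Further genes of the pathway come from lists of named genes. The share of all tested genes called higher was 25.1%, 24.2% and 29.9% at 6, 12 and 24 h, and that called lower was 27.7%, 27.1% and 31.3%, and a count near these shares is not a result about its list. DUSP9 is the remaining classical MAP kinase phosphatase, a cytoplasmic relative of DUSP6. DUSP9 had a mean of 2.22 CPM at 0 h, 11.2 CPM at 6 h, 11.6 CPM at 12 h and 22.8 CPM at 24 h, where its libraries held 13.3 and 32.3 CPM (log2 fold changes 2.33, 2.38 and 3.35, adjusted p = 0.000169, 0.000187 and 1.54e-05). Of the 15 tested of 22 other dual-specificity phosphatases, 4 were called higher and 5 lower at 6 h, 4 and 6 at 12 h, and 4 and 5 at 24 h, with a median log2 fold change of -0.26, -0.17 and -0.35. Called higher at all times was also DUSP11, an RNA phosphatase (log2 fold changes 1.27, 1.08 and 1.05). DUSP19 (-1.33, -1.27 and -2.51) and EPM2A, the glycogen phosphatase laforin (-1.89, -1.75 and -1.37), were called lower. DUSP19 was low, with a mean of 1.54 CPM at 0 h and only 4 and 7 counts in the libraries of 24 h. Among 7 tested of 10 phosphatases of other families that act on MAP kinases, 3, 4 and 4 were called higher and edgeR called 0 lower (0, 2 and 0 lower at an unadjusted p under 0.05). At 12 h 2 were called higher without any single 0 h library or 12 h replicate 2, and 2 were called lower without either 24 h library, while at 24 h 1 was called lower without 24 h replicate 2. PPM1D rose from a mean of 9.86 CPM to 20.3, 15.6 and 26.1 CPM, and PPP2CA, the catalytic subunit of PP2A, from 111 CPM to 220, 193 and 268 CPM. At 24 h library size alone called 1 of the other dual-specificity phosphatases higher and 11 lower, and sample quality weights called 2 and 2. Of the phosphatases of other families, edgeR with library size alone called 0 higher at 12 h and 0 at 24 h (1 and 0 higher at an unadjusted p under 0.05). It called 2 of them lower at 24 h, and sample quality weights called 3 lower at 12 h. PPM1D and PPP2CA were thus not called higher at 12 or 24 h under that scaling.

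Of the 17 MAP kinases and MAP kinase kinases, 6 were called higher and 5 lower at 6 h, 6 and 6 at 12 h, and 5 and 4 at 24 h. With library size alone 2 were called higher and 11 lower at 24 h, and with sample quality weights 3 and 2. MAP2K1, the kinase MEK1 that activates ERK, rose from a mean of 51.9 CPM to 192, 180 and 183 CPM, and MAP2K3, which activates p38, from 19.7 CPM to 106, 78.6 and 56.7 CPM. MAP2K5, the activator of ERK5, fell from 26.3 CPM to 8.42, 13.4 and 16.3 CPM, and MAPK13, the p38 delta kinase, from 134 CPM to 65, 63.8 and 62.4 CPM. Of the 12 RAS, RAF and scaffold genes, 5, 3 and 2 were called higher and 2, 2 and 5 lower. These small counts moved with single libraries. At 12 h 1 was called lower without any single 0 h library or 12 h replicate 1 or 3, at 24 h 3 without 0 h replicate 1, 0 h replicate 3 or 24 h replicate 2, and 1 was called higher at 24 h without 0 h replicate 2 or 24 h replicate 1. At 24 h 9 were called lower with library size alone and 1 with sample quality weights. EdgeR with library size alone called 0 of the 12 higher at 12 h and 0 at 24 h (0 and 0 higher at an unadjusted p under 0.05). Sample quality weights called 7 higher at 12 h. SHOC2 rose at each time (log2 fold changes 0.70, 0.56 and 0.49), but was not called higher at 12 or 24 h with library size alone. SOS2 (-0.75, -0.69 and -0.79) and ARAF (-0.66, -0.39 and -0.62) fell.

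The 12 ERK feedback inhibitors, which like the phosphatases restrain the pathway, had 7 called higher and 2 lower at 6 h, 5 and 2 at 12 h, and 2 and 4 at 24 h, with a median log2 fold change of 0.45, 0.30 and -0.44. ERRFI1, an inhibitor of the EGF receptor, rose from a mean of 33.6 CPM to 157, 112 and 102 CPM (61.7 and 143 CPM in the libraries of 24 h). SPRY1 rose from 3.97 CPM to 12.9, 17.8 and 12.4 CPM. SPRY3 (log2 fold changes -2.11, -2.51 and -2.52) and RASA1 (-0.59, -1.01 and -1.47) fell. SPRY3 was near the floor, with a mean of 0.702 CPM at 0 h and 2 to 8 counts in the hypoxic libraries. With at least 10 counts in every library, 1 of the 12 was called lower at 6 h and 1 at 12 h. At 12 h 2 of these inhibitors were called higher without 0 h replicate 2 and 3 without 12 h replicate 1, and without 24 h replicate 1 the 24 h counts were 1 higher and 7 lower. Among 24 transcripts that ERK signaling induces, 14 were called higher and 4 lower at 6 h, 13 and 5 at 12 h, and 10 and 6 at 24 h, with medians of 1.04, 0.89 and 0.42. The count called lower at 6 h was 1 without 0 h replicate 1 or 6 h replicate 1 and 2 without 0 h replicate 2, 0 h replicate 3 or 6 h replicate 3, and that at 12 h was 3 without 12 h replicate 3. FOSL1, an AP-1 subunit, rose from 5.43 CPM to 93.8, 72.5 and 25.5 CPM and the EGF receptor ligand EREG from 9.73 CPM to 79, 61.3 and 122 CPM, the last of these a mean of libraries at 43.1 and 201 CPM. EGR1, an immediate early gene, fell from 47.9 CPM to 22.8, 26.1 and 10.2 CPM and LIF from 2.18 CPM to 1.26, 0.976 and 0.243 CPM. LIF had 5 counts in each library of 24 h. With library size alone 2 of 12 feedback inhibitors were called higher at 12 h, and at 24 h 8 of them were called lower. Of the ERK-induced transcripts it called 5 higher and 10 lower at 24 h. With sample quality weights 2 feedback inhibitors were called lower at 24 h, and of the ERK-induced transcripts limma called 6 higher and 0 lower (2 lower at an unadjusted p under 0.05).

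**Figure D4:**
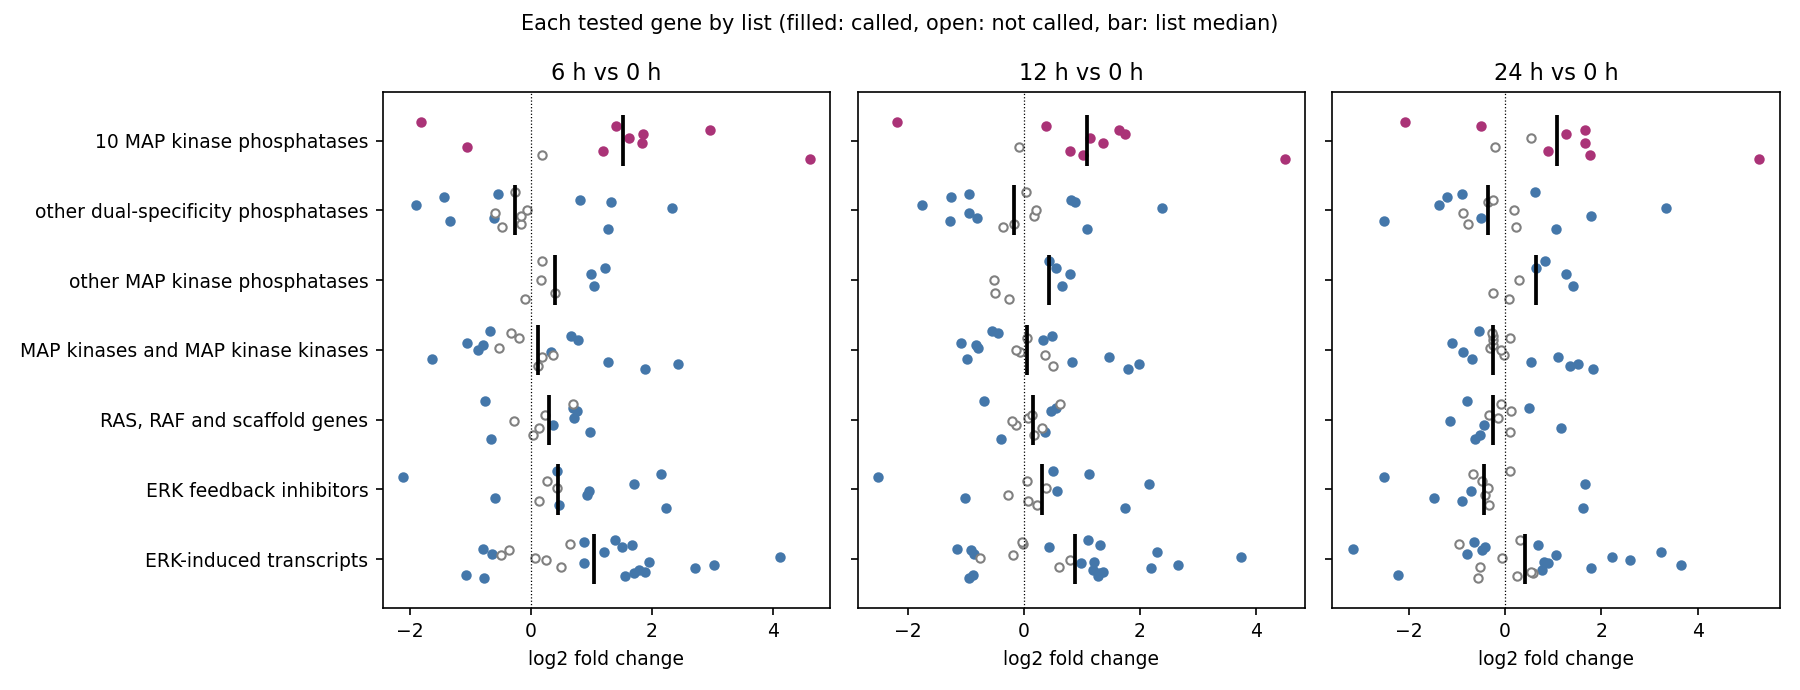
log2 fold change against 0 h of every tested gene of the family and of 6 lists of the pathway at 6, 12 and 24 h. Filled points were called, open points were not, and the black bar is the median of the list. The median of the 10 members is 1.52, 1.08 and 1.08, and that of the ERK feedback inhibitors goes from 0.45 to -0.44.

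Over the 11 libraries, which share time points and fall into normoxic and hypoxic clusters, Pearson's r of log2 CPM describes likeness only. It was 0.96 for DUSP2 and DUSP14, 0.92 for DUSP4 and DUSP5, and -0.97 for DUSP1 and DUSP8. For the 3 members with the widest range of means, the most similar of 13938 genes were sought. Among these were MICB (r = 0.992), ARMC12 (0.991) and RELT (0.991) for DUSP1, CCNE1 (0.961) and DNAJB4 (0.952) for DUSP6, and SESN2 (0.985), ULK2 (0.981) and NLRP1 (0.98) for DUSP8. SESN2 went from a mean of 50.5 CPM at 0 h to 14.6, 12.1 and 11.6 CPM, and CCNE1 from 4.76 CPM to 12.6, 7.54 and 9.46 CPM.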

How the data were processed

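The authors trimmed single-end reads of stranded libraries with Trimmomatic, aligned them with STAR to GRCh38 and summarized them by Ensembl gene with featureCounts. The deposited values are these whole-number counts, without filter or normalization, for 11 libraries; 0 columns were left unmatched. The submitters' processing notes also name DESeq2. No 2 libraries were identical.

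Gene positions and exonic lengths came from GENCODE release 44, which held 60357 of 60676 identifiers. filterByExpr (minimum count 10, minimum total 15, by time point) kept 19981 genes. All 11 libraries were fitted with edgeR 4.0.16 (R 4.3.3; glmQLFit and glmQLFTest, TMM, a mean per time point, biological coefficient of variation 19.6%), with Benjamini-Hochberg adjustment over the tested genes. The standard error is the log2 fold change over the square root of F. log2 CPM used a prior count of 2, and CPM per kilobase divides by exonic length. The fit was tested on simulated data. At 27496009 or more counts per library, the lowest member count was 8.

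All 10 members are named. From each pathway list the text names up to 2 genes with the largest mean rise and 2 with the largest mean fall among those called in 1 direction at all 3 times, and DUSP9. Alternatives were limma-voom (limma 3.58.1), with and without sample quality weights, DESeq2 1.42.0, other scalings and filters, only the compared times, a replicate block, and each library left out. A comparison of 24 h with 6 h was added after the values were seen. Of the genes most alike to the members, 1 is not reported here. Members and lists were chosen with earlier results of these data known.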

Additional observations from a re-analysis of the deposited data

Results flagged for a closer look

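In 8 cases the change of a member against normoxia differed between times of hypoxia, as tested by the contrast of both times in edgeR's quasi-likelihood fit with Benjamini-Hochberg adjustment. These were 1 of 10 members at 12 h against 6 h, 2 at 24 h against 12 h and 5 at 24 h against 6 h. Of all tested genes, 4.95%, 28.4% and 42.4% were called in the same contrasts. DUSP7 was lower at 12 h than at 6 h (log2 fold change -1.02, adjusted p = 0.00562), at 24 h than at 12 h (-0.888, adjusted p = 0.00424) and at 24 h than at 6 h (-1.91, adjusted p = 4.51e-05). DUSP10 was higher at 24 h than at 6 h (1.58, adjusted p = 0.00104), and DUSP4 (-1.09, adjusted p = 0.00316) and DUSP6 (-1.29, adjusted p = 0.046) were lower. DUSP1 was higher at 24 h than at 12 h (0.795, adjusted p = 0.0255) and at 6 h (0.673, adjusted p = 0.0369). The comparison of 24 h with 6 h was added after the values were seen. Every 24 h library lay beyond every 6 h library for DUSP4, DUSP6, DUSP7 and DUSP10, and not for DUSP1.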

How the results depend on the processing

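Of 1194 alternative values of the 10 members over 6 comparisons, 1063 kept their direction and side of the threshold, 62 lost the call, 45 gained one and 24 changed sign. Library size alone called 5 members at 12 h and 5 at 24 h against 0 h, and gave log2 fold changes of -0.142 (DUSP10, 6 h), -0.082 (DUSP7, 12 h) and -0.364 (DUSP4, 24 h) against 0 h, of -0.163 (DUSP2), -0.304 (DUSP6), -0.303 (DUSP8) and -0.328 (DUSP14) at 24 h against 12 h, and of -0.0038 for DUSP1 at 24 h against 6 h; the shift of the median of all genes is given above. Sample quality weights called 5 members at 24 h against 0 h, 7 at 12 h against 6 h, 2 at 24 h against 6 h, and 0 at 24 h against 12 h by limma (2 at an unadjusted p under 0.05), with DUSP1 at 0.0436 at 12 h against 6 h. At 12 h against 6 h, limma-voom called 2 members, DESeq2 4, no filter 4, only the compared times 2 and the replicate block 2. Of all genes these called 974, 1919, 1674 (of 39835), 1820 and 510, beside 989 in the fit described above. At 24 h against 12 h no filter called 5, with DUSP6 at -0.0418, and only the compared times 0 (edgeR; 2 at an unadjusted p under 0.05, and 0 of all genes, 5928 unadjusted); DUSP6 was at -0.000619 with at least 10 counts in every library. Of the 19981 tested genes, library size alone called 10560 at 12 h and 13527 at 24 h against 0 h. Sample quality weights called 6169 of them at 24 h against 0 h and 4489 at 12 h against 6 h. They called 2531 at 24 h against 6 h and 1093 at 24 h against 12 h. The fit described above called 12235, 989, 8479 and 5668 in these comparisons. Without a filter, 6144 of 39835 genes were called at 24 h against 12 h. The cause of these moves was not tested.

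When each library in turn was left out, 8 to 9, 8 to 9 and 7 to 9 members were called against 0 h at 6, 12 and 24 h, 0 to 5 at 12 h against 6 h, 1 to 3 at 24 h against 12 h and 3 to 8 at 24 h against 6 h. Ranges that crossed 0 were those of DUSP16 at 12 h (-0.183 to 0.0412) and 24 h (-1.9 to 0.508) against 0 h; DUSP1 (-0.247 to 0.154) and DUSP5 (-0.328 to 0.241) at 12 h against 6 h; DUSP6 (-0.528 to 0.845), DUSP8 (-0.334 to 0.417), DUSP14 (-0.0108 to 0.178) and DUSP16 (-1.79 to 0.599) at 24 h against 12 h; and DUSP8 (-0.728 to 0.0386) and DUSP16 (-0.819 to 1.58) at 24 h against 6 h. Where a library left out leaves 1 at 24 h, that library is assumed to vary like the others.

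Of 15 pairs of libraries with the same replicate number, 2 had a correlation of deviations over 0.1 (range -0.16 to 0.21). Deviations from the mean of a time point sum to 0, and those of the 24 h libraries mirror each other. This check therefore cannot show whether the samples were paired. The replicate block called 9, 8 and 8 members against 0 h, beside 10124, 9805 and 11534 of the 19981 tested genes. It ended the calls of DUSP7 at 12 and 24 h and added DUSP4 at 24 h and DUSP6 at 12 h against 6 h. Of 720 alternative counts over the pathway lists, 650 stayed within 1.5 times. Depth limits DUSP8 and DUSP2 most, and DUSP8 could not be tested with at least 10 counts in every library.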
